A study of Mus musculus with 2 samples.

Results

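In the bone marrow of adult mice, 186 cells sorted as α4β7-expressing lymphoid progenitors (αLPs) carried strong transcripts of cell division, and they are the subject here. They were chosen by the UMI counts of 8 genes in the bone marrow library, among cells with at least 500 genes and at most 10% of UMIs on mitochondrially encoded genes. A UMI, a unique molecular identifier, marks 1 captured RNA molecule. The summed UMIs of Mki67, Top2a, Nusap1, Birc5 and Ube2c had to reach 10, Dntt plus Ly6d had to stay under 2, and Cd74 had to stay under 10. The 186 cells are 2.56% of the 7258 bone marrow cells that passed the filters on genes and mitochondrial UMIs, out of 15841 such cells in the series. Since measured values chose these cells, the levels of the 5 genes are given below as a description and carry no test.

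The series holds 1 single-cell RNA-seq library of αLPs from adult bone marrow and 1 from fetal liver at E14.5, per the series' design text. Both came from untreated wild-type mice of the B6 strain, with the same batch label on both. Live cells were sorted as lineage-negative, positive for CD45, CD127 and α4β7, and negative for Flt3 and CD25, with the α4β7 integrin encoded by Itga4 and Itgb7 and CD127 by Il7r. The age label reads 6 to 8 weeks for the bone marrow sample and also for the fetal one, and the sources used here do not state how many animals each library holds. The bone marrow library held 7367 barcodes with 30039931 UMIs, and the fetal liver library 8946 barcodes with 91781395 UMIs. With 1 library per tissue there are no replicates, so no comparison below has a test. The 95% intervals given are exact and cover counting error only. The libraries shared 19 barcodes, and none of the 186 cells carried one of them.

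A dividing cell copies its DNA in S phase, with an MCM helicase that opens the double strand and polymerases held on by the PCNA clamp, and separates the copies in mitosis on a spindle of microtubules driven by cyclin B with CDK1. E2F factors switch on the S phase genes, and the MuvB complex with B-MYB and FOXM1 switches on the mitotic genes later in the cycle. Innate lymphoid cells (ILCs) descend from lymphoid progenitors in fetal liver and bone marrow through stages marked by the transcription factors Id2, Gata3 and PLZF, the product of Zbtb16.

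Promoters of the mitotic genes commonly hold a CHR, an element bound by MuvB, and a CCAAT box, bound by NF-Y. The 150 bases before the annotated start of each of the 5 genes that chose the cells are shown, 5′ to 3′ on the gene's strand, from RefSeq on build GRCm38.p6, so that both elements can be read in place. Capitals mark TTTGAA or TTCGAA (the CHR forms searched) and CCAAT, on either strand, so that TTCAAA and ATTGG are the same letters read from the other strand.
Mki67: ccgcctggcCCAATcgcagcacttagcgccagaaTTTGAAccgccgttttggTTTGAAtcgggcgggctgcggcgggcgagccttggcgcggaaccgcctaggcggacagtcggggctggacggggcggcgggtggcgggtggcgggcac
Top2a: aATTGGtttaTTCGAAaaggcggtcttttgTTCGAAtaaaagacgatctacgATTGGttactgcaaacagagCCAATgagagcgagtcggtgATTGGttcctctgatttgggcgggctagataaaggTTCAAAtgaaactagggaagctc
Ube2c: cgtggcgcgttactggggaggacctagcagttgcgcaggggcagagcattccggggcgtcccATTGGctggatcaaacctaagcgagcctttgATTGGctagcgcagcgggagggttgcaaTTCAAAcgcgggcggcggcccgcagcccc
Birc5: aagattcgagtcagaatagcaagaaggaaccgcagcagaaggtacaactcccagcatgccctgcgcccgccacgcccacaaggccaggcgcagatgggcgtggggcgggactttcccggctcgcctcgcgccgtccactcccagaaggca
Nusap1: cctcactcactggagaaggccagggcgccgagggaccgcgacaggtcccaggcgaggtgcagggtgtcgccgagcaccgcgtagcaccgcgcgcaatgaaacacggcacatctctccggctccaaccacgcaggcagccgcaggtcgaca
The stretches lie at chr7:135716380-135716529, minus strand (Mki67), chr11:99024190-99024339, minus strand (Top2a), chr2:164769779-164769928, plus strand (Ube2c), chr11:117849087-117849236, plus strand (Birc5) and chr2:119618148-119618297, plus strand (Nusap1). In the whole window of 300 bases per gene (250 before and 50 after the start), Mki67, Top2a and Ube2c held a CHR form and the same 3 held a CCAAT box. Neither set of letters occurred in the windows of Birc5 and Nusap1. Of the other genes on the mitotic lists used below, 62 of 77 matched the promoter table, and 44 of these 62 (71.0%) held a CHR form, against 19.4% of the 27025 gene promoters in the table. CCAAT occurred in 77.4% of the 62, in 60% of the 40 matched promoters of the replication lists and in 55% of the 20 of ILC transcription factors, against 37.9% of all. Of the replication promoters, 10 of 40 (25%) held a CHR form, and 45% held the E2F core GCGGGAA, against 11.3% of the mitotic promoters and 4.66% of all. Among those of ILC transcription factors, 3 of 20 (15%) held a CHR form and none the E2F core. A match describes the letters only.

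Mki67 encodes the proliferation antigen Ki-67, Top2a untangles DNA before chromosomes part, Nusap1 bundles spindle microtubules, Birc5 is survivin of the chromosomal passenger complex, and Ube2c hands ubiquitin to cyclin B. All levels below are UMIs summed over the cells of a group per 1000000 UMIs (CPM). In the dividing cells, against the 6203 other bone marrow cells under the same limits on Dntt, Ly6d and Cd74, Ube2c stood at 879 against 6.10 CPM, Birc5 at 575 against 14.6, Top2a at 562 against 25.2, Nusap1 at 398 against 4.88 and Mki67 at 165 against 3.62. Ube2c gave 34.1% of the UMIs that met the minimum and Mki67 6.39%. All 5 genes were detected in 112 of the 186 cells, and 4 of them in 65. The sum had a median of 20.5 and reached 74. There was no gap at the minimum: 14 cells had a sum of 10 and 11 a sum of 11, while 8 cells just outside had 9 and 15 had 8. Below the minimum, 5609 of the 6203 cells had no UMI of the 5 genes.

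The dividing cells yielded more UMIs than the rest. Their median was 8426.5 UMIs and 2259 genes per cell, against 3236 UMIs and 1196 genes in the other cells, and the share of mitochondrial UMIs was close (2.68% against 3.13%). Depth per cell climbed through the classes of the rule sum, with medians of 3089 UMIs at a sum of 0, 5097 at 1 to 4, 6839 at 5 to 9, 8046 at 10 to 19 and 8958 at 20 or more. A minimum in UMIs is easier to reach in a deeper cell. For some comparisons below, the value among cells with at least 5000 UMIs in both groups is therefore given too. It was added once the data had been seen. Against the main setting, that depth moved 112 log2 ratios of dividing over other bone marrow cells, reversed 4 and left 80 the same. It moved 24 list medians and left 18 the same. Ratios given below without this value may depend on depth.

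**Figure D1:**
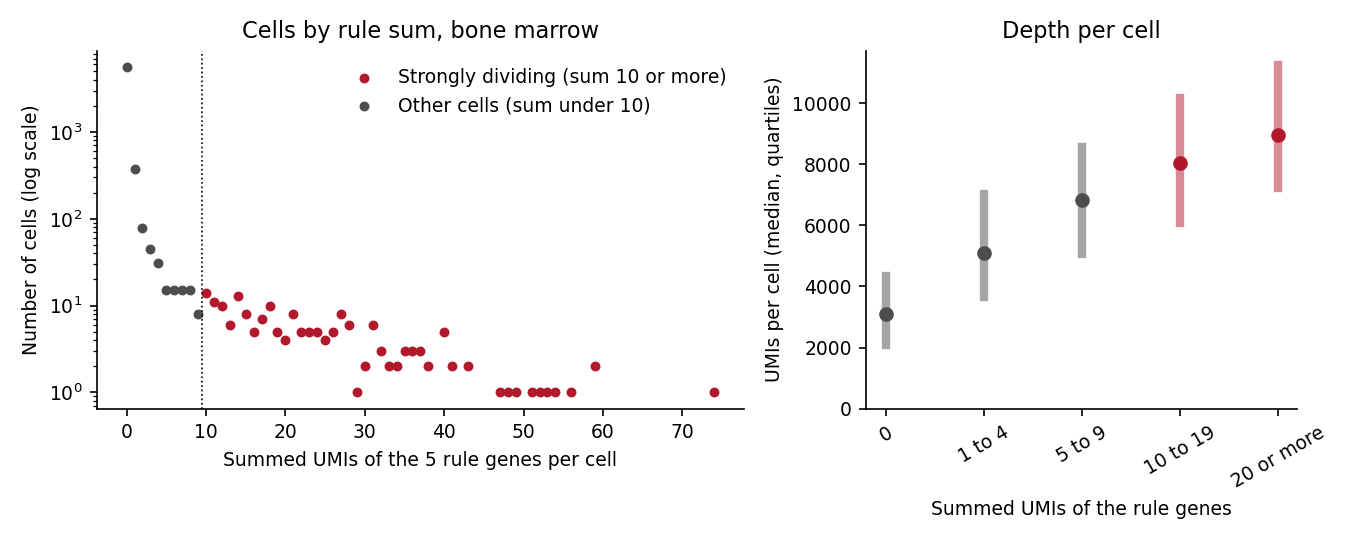
Left, number of bone marrow cells (log scale) at each summed UMI count of the 5 rule genes, with the strongly dividing cells in red and the others in grey; right, UMIs per cell by class of that sum (point, median; bar, quartiles). The counts of cells run through the minimum of 10 without a gap, and the median depth is 3089 UMIs at a sum of 0 and 8958 at 20 or more.

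Over all genes, 538 of the 6953 with at least 10 CPM in either group (7.74%) were at least 2-fold higher in the dividing cells, and 511 (7.35%) at least 2-fold lower. The median log2 ratio was -0.03. Mitotic genes lay at the top. Of 26 listed spindle motors and microtubule regulators, 25 were measured (at least 10 CPM in either group) and all 25 were at least 2-fold higher, with a median log2 ratio of 4.50. Cyclins and mitotic kinases followed with 21 of 22 measured and a median of 4.47, and kinetochore and spindle checkpoint genes with 24 of 25 and a median of 3.24. No measured gene of these 3 lists was 2-fold lower. Genes counted here passed the minimum mostly through the dividing cells, which the rule picked for such transcripts, so the counts describe the size of the shift and support nothing further.

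Plk1, the kinase that starts spindle assembly, stood at 49.0 CPM (39.0 to 60.8, from 82 UMIs) in the dividing cells and 0.654 CPM (from 15 UMIs) in the others, a log2 ratio of 6.23. Cdk1, the kinase of mitotic entry, stood at 201 against 8.02 CPM (4.64), and Ccnb1, its cyclin B1 partner, at 41.8 against 1.40 CPM (4.91). Outside the histones and the 5 rule genes, the largest ratios at 50 CPM or more belonged to Hmmr, a spindle pole protein (82.4 against 1.96 CPM, 5.39), Cdca3, a trigger of mitotic entry (148 against 3.75 CPM, 5.30), Esco2, which acetylates cohesin (96.2 against 2.53 CPM, 5.25), the checkpoint kinase Bub1 (55.6 against 1.66 CPM, 5.07), Prc1, which bundles midzone microtubules (138 against 4.14 CPM, 5.06), cyclin A2, Ccna2 (107 against 3.23 CPM, 5.05), and the kinetochore protein Ska1 (75.9 against 2.35 CPM, 5.01). Hmmr UMIs were few in absolute terms, 138 over the 186 cells against 45 over 6203 cells. Among the regulators, Foxm1 stood at 22.7 against 0.959 CPM (4.56) and Mybl2, which encodes B-MYB, at 11.3 against 2.01 CPM (2.5). Lin9, a core subunit of MuvB, stood at 25.7 against 9.77 CPM (1.40).

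Replication genes were higher by less. The MCM and origin licensing list had a median log2 ratio of 1.40 (15 of 17 measured at least 2-fold higher), DNA polymerases and fork genes 1.57 (25 of 31) and nucleotide synthesis 1.15 (9 of 17). Rrm2, the regulated subunit of ribonucleotide reductase, stood at 292 against 21.8 CPM (3.74), thymidylate synthase, Tyms, at 317 against 33.0 CPM (3.27), Gmnn, which encodes the licensing inhibitor geminin, at 235 against 51.4 CPM (2.19), and Pcna at 259 against 87.4 CPM (1.57). The MCM subunits Mcm3, Mcm5 and Mcm6 had log2 ratios of 1.28, 1.40 and 1.15. Among cells with at least 5000 UMIs these medians were smaller, 0.63 for MCM and licensing genes, 0.99 for fork genes and 0.49 for nucleotide synthesis, against 3.57 for cyclins and mitotic kinases.

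Histone transcripts were abundant and higher. Of 18 listed, 17 were at least 2-fold higher, with a median of 2.39. Hist1h2ae stood at 2468 against 152 CPM (4.02), Hist1h2ap at 1917 against 150 CPM (3.68), and the linker histone Hist1h1b at 507 against 26.5 CPM (4.26). The variant H2afz, which is made throughout the cycle, stood at 5804 against 1598 CPM (1.86). Hist1h genes are near-identical copies and the counts per copy are uncertain. The condensins Smc2 and Smc4, which compact chromosomes, had log2 ratios of 2.83 and 2.52, and Brca1, of homologous recombination, 2.83 from 52 UMIs.

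D-type cyclins did not follow. Ccnd2 stood at 49.0 against 108 CPM (-1.15), and Ccnd3 at 74.7 against 71.4 CPM (0.06). The inhibitor Cdkn1b, p27, stood at 47.8 against 77.6 CPM (-0.70), and Cdkn2c, p18, was higher, at 40.6 against 5.14 CPM (2.98). Several lists of growth genes outside the cycle stayed within 2-fold: 0 of 31 proteasome subunits, 0 of 42 oxidative phosphorylation genes and 0 of 19 MYC and ribosome biogenesis genes were past 2-fold in either direction, with medians of 0.57, 0.46 and 0.33. Of 15 measured glycolysis genes, 1 was at least 2-fold higher and 2 lower. Among 20 heat shock and chaperone genes, 0 were higher and 2 lower. Myc itself stood at 23.9 against 29.5 CPM, with an interval of the log2 ratio of -0.80 to 0.16.

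**Figure D2:**
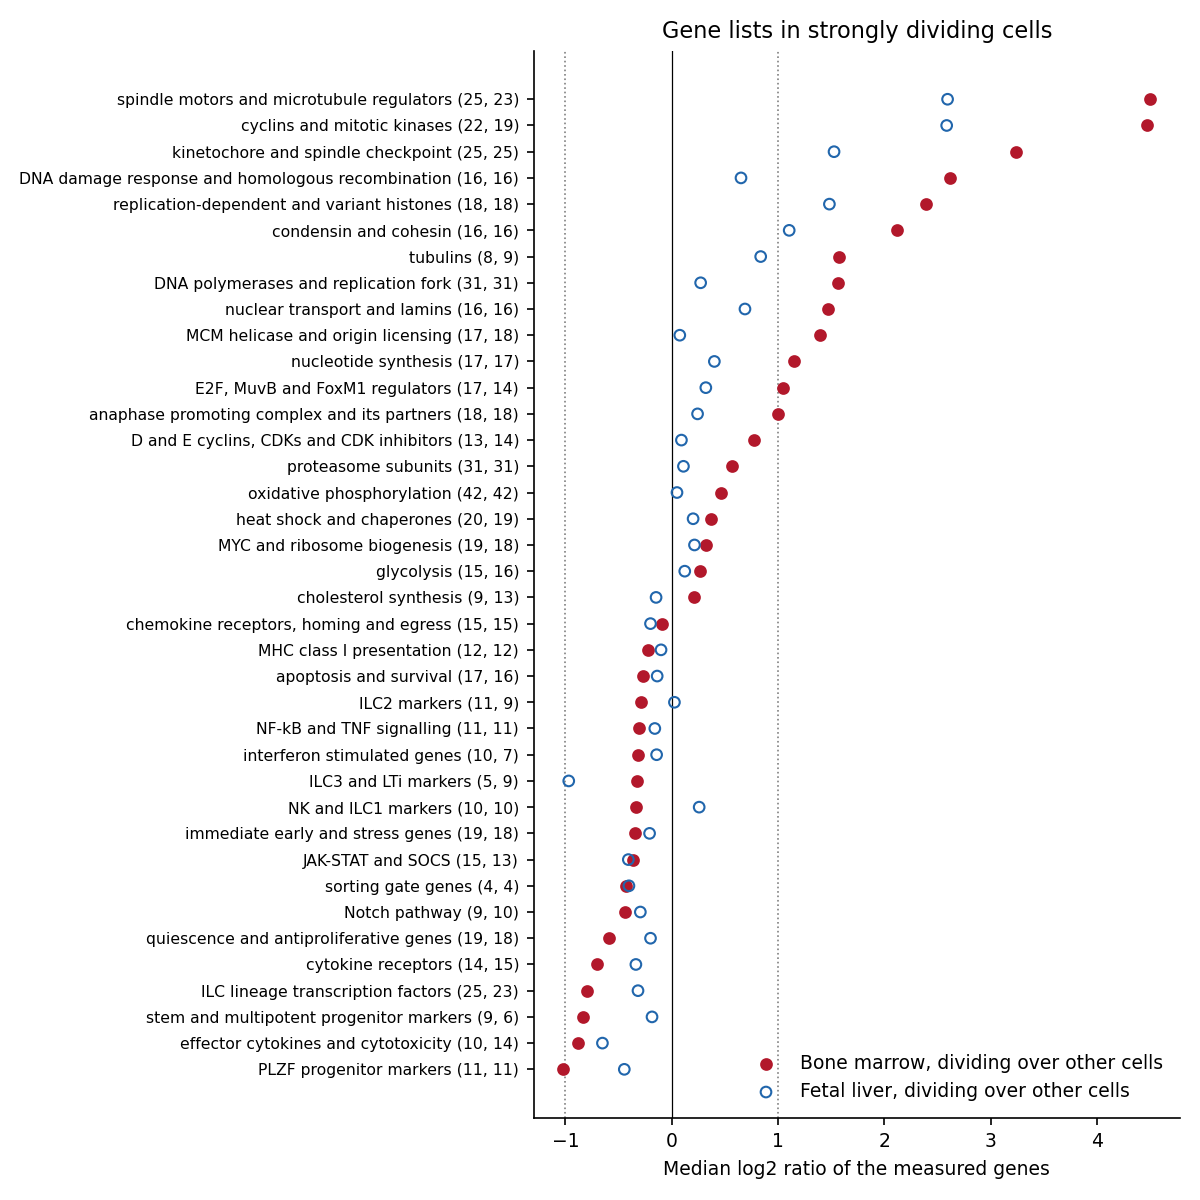
Median log2 ratio of the measured genes of each list, dividing over other cells, in bone marrow (red) and in fetal liver under the same rule (blue circles), with the number measured in bone marrow and in fetal liver in brackets, for lists with at least 4 measured genes in each tissue. Of the lists drawn, the spindle list is highest in bone marrow at 4.50 and the PLZF progenitor list lowest at -1.02; dotted lines mark 2-fold.

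In most of the 186 cells, the listed mitotic genes gave more UMIs than the listed replication genes. UMIs summed over 74 mitotic genes, none of them among the 5 that chose the cells, exceeded those over 50 replication genes in 179 cells (96.2%, 92.4 to 98.5%), and were at least 2 times as many in 113. The mitotic sum per cell ran from 28 to 208 UMIs with a median of 78.0, and the replication sum from 2 to 104 with a median of 31.0. All 5 genes of the rule peak late in the cycle, so this balance follows partly from the choice. Cells with a rule sum of 5 to 9, outside the minimum, had more mitotic than replication UMIs in 69.1% (47 of 68). The 113 cells with at least 2 times as many mitotic UMIs held 108 CPM of Cdc20, the activator of the anaphase promoting complex. The remaining 73 held 18.3 CPM. Tyms stood the other way, at 202 against 474 CPM. Neither gene is in the sums that split the cells. Stmn1, of the spindle list, is in the mitotic sum, with 4893 UMIs over the 186 cells. It differed little by this split, at 2876 against 2986 CPM. The sums are not scaled and cover unlike numbers of genes, so a larger mitotic sum does not by itself place a cell in mitosis.

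Across classes of the rule sum, replication and mitotic genes peaked in different places. Rrm2 stood at 3.75, 86.0, 341, 388 and 212 CPM at sums of 0, 1 to 4, 5 to 9, 10 to 19 and 20 or more. Clspn, the checkpoint adaptor claspin, followed the same course at 3.85, 28.4, 88.2, 93.0 and 49.4 CPM. Plk1 kept climbing, at 0.205, 1.02, 15.7, 20.95 and 72.5 CPM, and Hmmr at 0.411, 6.09, 37.3, 53.7 and 107 CPM. The 68 cells just below the minimum therefore held replication transcripts at levels close to those at sums of 10 to 19.

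**Figure D3:**
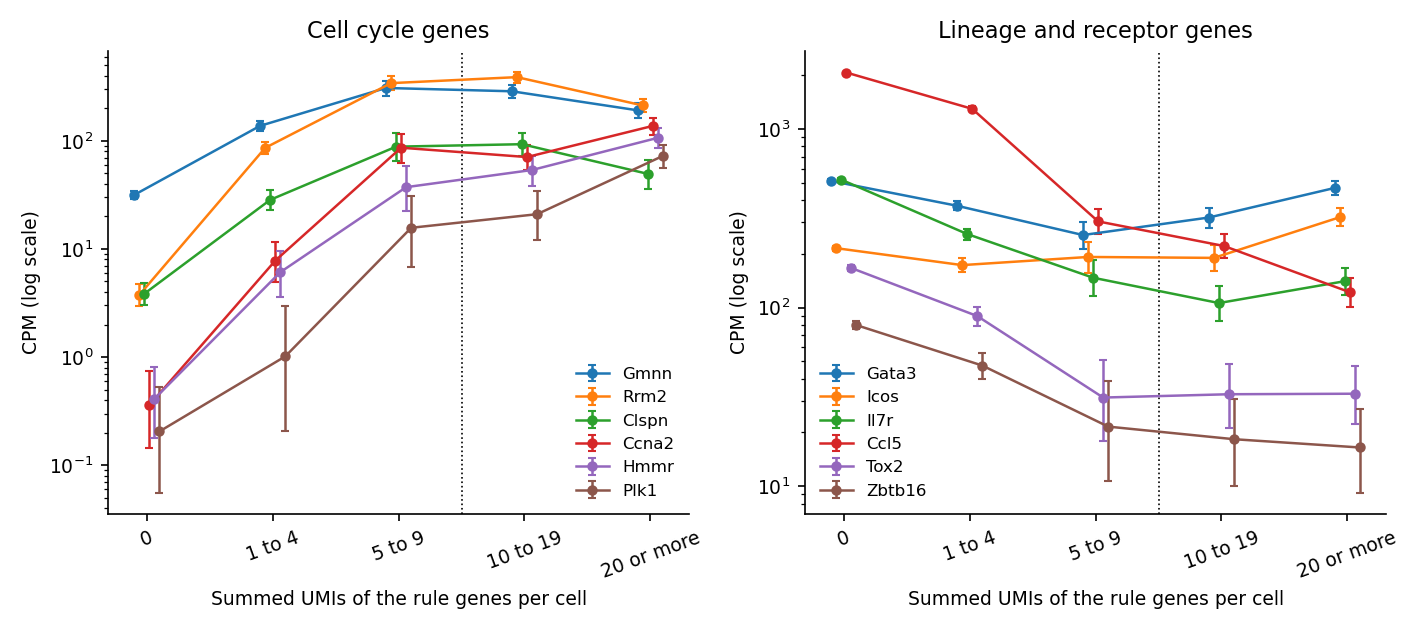
CPM (log scale) in bone marrow cells by summed UMIs of the 5 rule genes, with exact Poisson intervals; the dotted line marks the minimum of 10. Rrm2 and Clspn are highest at 10 to 19 and Plk1 and Hmmr at 20 or more, while Ccl5, Tox2 and Zbtb16 are already low at 5 to 9.

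Transcripts that were lower in the dividing cells included factors and receptors of the ILC lineage. Of 29 listed ILC transcription factors, 25 were measured, with 0 at least 2-fold higher and 11 lower, and a median log2 ratio of -0.80 (-0.78 among cells with at least 5000 UMIs). The list of PLZF progenitor markers had a median of -1.02 with 6 of 11 measured lower (-0.98 at that depth). Zbtb16 stood at 17.3 CPM (11.6 to 24.9, from 29 UMIs) against 74.3 CPM (-2.10), Tox2 at 32.9 against 154 CPM (-2.23), Lef1 at 4.78 CPM from 8 UMIs against 36.8 CPM (-2.95), and Tcf7, which encodes TCF-1, at 105 against 279 CPM (-1.41). Rora, Runx3, Lmo4 and Id2 were lower too, at 306, 179, 798 and 525 CPM, against 760, 462, 2055 and 1140 CPM. Gata3 lay within 2-fold, at 400 CPM (370 to 432) against 488 CPM (-0.29), and at a ratio of 0.13 among cells with at least 5000 UMIs.

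The chemokine Ccl5 showed the largest ratio downward among genes with at least 50 CPM. It stood at 167 CPM against 1932 CPM, a log2 ratio of -3.53 (-3.77 among the deeper cells). Il7r, whose protein was part of the sort, stood at 125 against 478 CPM (-1.94, and -1.02 among the deeper cells), and Bcl2, the survival factor, at 104 against 429 CPM (-2.05 and -1.97). Itga4 and Itgb7, of the same sort, differed less, with 195 against 254 CPM and 59.1 against 69.6 CPM. Btg1 and Zfp36l1, which restrain proliferation, had log2 ratios of -1.22 and -1.29, and these shrank to -0.23 and -0.48 among the deeper cells. Klf2 went the other way, at 927 against 426 CPM (1.12), with 1.66 among the deeper cells. For Ccl5 and Tox2 the lower level began below the minimum. Ccl5 stood at 2071, 1297, 304, 221 and 122 CPM through the 5 classes of the rule sum, and Tox2 at 166, 89.7, 31.4, 32.7 and 33.0 CPM. Gata3 dipped and returned, at 512, 372, 255, 319 and 468 CPM, and Icos, the costimulatory receptor, was highest in the last class, at 215, 173, 192, 190 and 321 CPM.

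To set shares of cells side by side, each cell was thinned to 2000 UMIs, which kept all 186 dividing cells and left out 1285 of the other cells. Zbtb16 was then detected in 1.61% of the dividing cells (3 of 186, 0.334 to 4.64%) against 14.2% of the others, and in 3.22% of the 590 cells left out for Dntt or Ly6d. Those cells passed the same sort and are another class of progenitors (the Dntt or Ly6d class), not a measure of free RNA, whose part in these shares was not tested. Before thinning, the median depths were 8426.5 UMIs in the dividing cells, 3236 in the others and 6748 in the cells left out for Dntt or Ly6d. Unthinned, the shares were 11.3% against 20.2%. Gata3 was detected in 51.1% against 57.7% (22.7% in the Dntt or Ly6d class; 84.9% against 72.4% unthinned), Icos in 37.6% against 27.7% (Dntt or Ly6d class 1.36%), Areg, which encodes amphiregulin, in 18.3% against 12.3% (Dntt or Ly6d class 2.54%), and the chemokine receptor Cxcr6 in 20.97% against 12.3% (Dntt or Ly6d class 0.678%). Il7r was detected in 22.6% against 55.7% (Dntt or Ly6d class 29.8%), Tox2 in 5.38% against 25.2% (Dntt or Ly6d class 4.07%), and Ccl5 in 13.4% against 42.3% (Dntt or Ly6d class 22.9%). The shares of Il7r and Ccl5 in the dividing cells lay below those of both other classes. Gata3 without Zbtb16 was found in 49.5% of the dividing cells and 49.3% of the others, and Zbtb16 without Gata3 in 0 of 186 (a floor of 3 cells equals 1.61%) against 5.82%. Id2 was detected in 60.2% against 74.6% (Dntt or Ly6d class 13.6%). Of these genes, Gata3, Icos, Areg, Cxcr6 and Id2 were each detected in a larger share of the dividing cells than of the Dntt or Ly6d class.

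**Figure D4:**
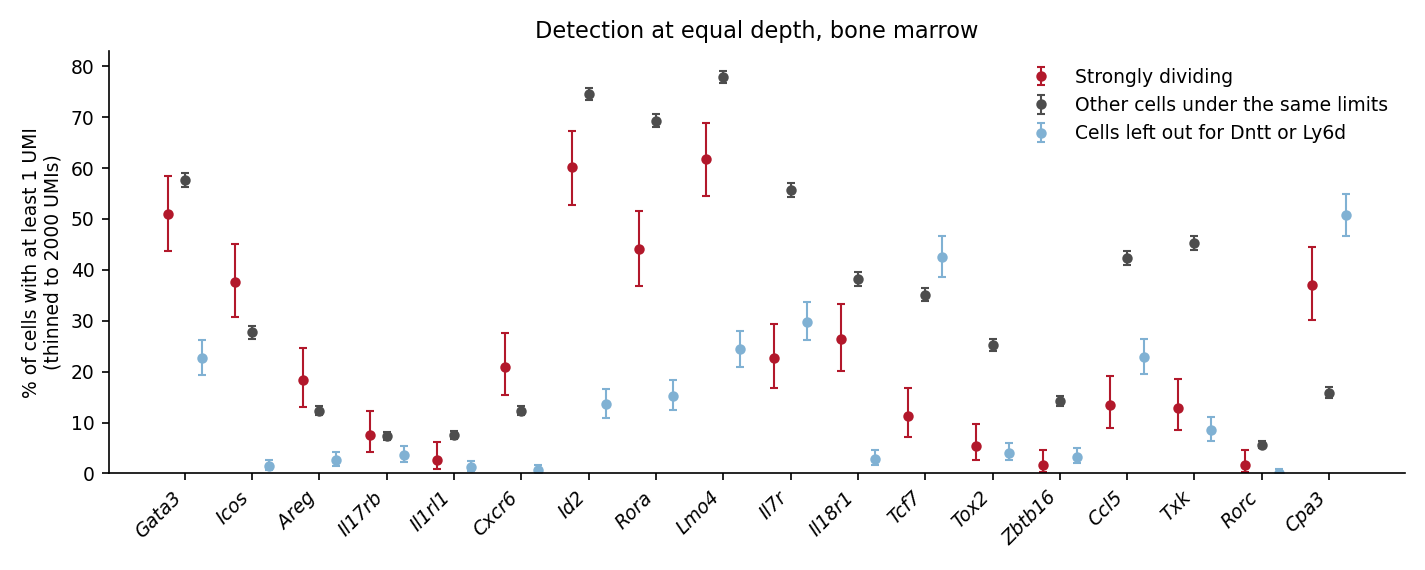
Share of bone marrow cells with at least 1 UMI after thinning to 2000 UMIs, with exact binomial intervals, in strongly dividing cells (red), other cells (grey) and cells left out for Dntt or Ly6d (light blue). Zbtb16 is in 1.61% of dividing cells and 14.2% of the others, and Icos in 37.6% and 27.7%.

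Read from the markers' side, dividing cells were unevenly spread over αLP states. Of the 5104 bone marrow cells with at least 2000 UMIs under the limits, 3.64% were strongly dividing. The share was 0.428% among the 701 with a Zbtb16 UMI (0.0883 to 1.25%), 0.799% of 1251 with Tox2, 1.19% of 2104 with Ccl5, 1.2% of 1750 with Tcf7 and 1.51% of 2780 with Il7r. It was 3.24% of 2931 with Gata3, 4.89% of 1432 with Icos, 5.30% of 641 with Areg (3.70 to 7.33%) and 6.05% of 645 with Cxcr6 (4.33 to 8.17%). Markers of 1 lineage did not all lie on 1 side: the ILC2 receptor Il1rl1 gave 1.33% of 376 (0.433 to 3.08%), and the NK receptors Klrd1 and Ncr1 gave 3.47% of 346 and 5.95% of 84 (1.96 to 13.3%). These states overlap, since 1 cell can carry several of the transcripts. Among cells with at least 2 UMIs of a list, the share was 3.51% for ILC2 markers, 2.47% for ILC3 and LTi markers, 2.27% for PLZF progenitor markers and 1.46% for NK and ILC1 markers. The list of ILC2 markers, genes of the type 2 innate lineage, had a median log2 ratio of -0.29 over all depths and 0.68 among cells with at least 5000 UMIs, so its direction depends on depth. That of NK and ILC1 markers was -0.33 and -0.78.

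The dividing cells were not uniform in Gata3. Of the 186, 59 had 0 or 1 Gata3 UMI, 31 had 2, and 96 had 3 or more, a division made after the data were seen and described without a test. Depth was close between them, with a median of 8208.5 UMIs per cell at 3 or more Gata3 UMIs and 9244 UMIs with 0 or 1. Cells with 3 or more held 371 CPM of Icos against 94.7 CPM in cells with 0 or 1, 255 against 30.4 CPM of Areg, 172 against 46.4 CPM of Cxcr6, 705 against 255 CPM of Id2, and 405 against 148 CPM of Rora. Plac8, a gene of early lymphoid and myeloid progenitors, stood at 398 against 1472 CPM, Nrgn, which encodes a calmodulin-binding protein, at 128 against 425 CPM, and Tyrobp, an adaptor of NK and myeloid receptors, at 63.2 against 259 CPM. Klrd1, the NK receptor CD94, stood at 73.7 against 236 CPM and was present in 2.08% against 16.9% of the cells, with 39 of the 63 UMIs in the higher Gata3 class from 1 cell. The intervals of the log2 ratio included 0 for Tcf7 (-0.652 to 0.367) and Il7r (-0.099 to 0.843), so their levels give no clear direction. Shares of cells did differ. Il7r was detected in 63.5% of the cells with 3 or more Gata3 UMIs against 40.7% of those with 0 or 1. Tcf7 lay the other way, in 26.04% against 45.8%. A single UMI of Dntt or Ly6d, which the limit admits, was present in 5 of the 96 cells (5.21%, 1.71 to 11.7%) and in 8 of the 59 (13.6%, 6.04 to 24.98%). The mitotic sum was at least 2 times the replication sum in 71.9% of the 96 and 40.7% of the 59. Gata3 and the balance of these sums thus vary together here, and the part of cycle phase in these differences was not tested.

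**Figure D5:**
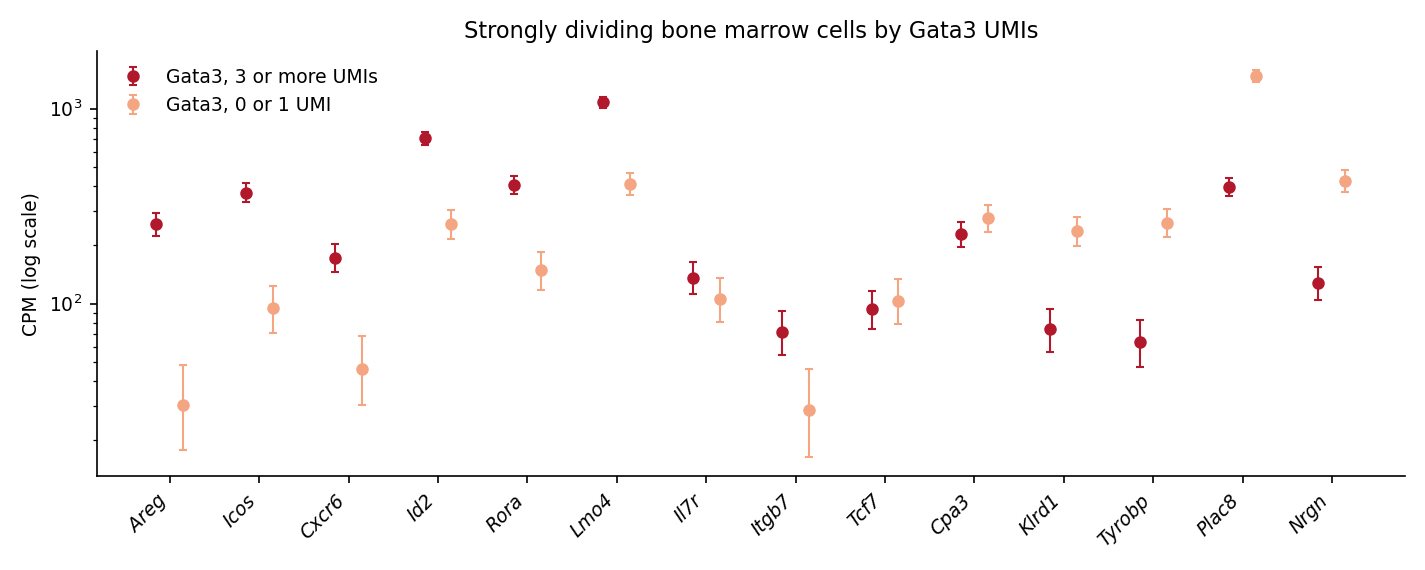
CPM (log scale) with exact Poisson intervals in the strongly dividing bone marrow cells with 3 or more Gata3 UMIs (96 cells, red) and with 0 or 1 (59 cells, orange). Icos, Areg and Cxcr6 are higher where Gata3 is higher, and Plac8, Nrgn, Tyrobp and Klrd1 lower.

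Several defining genes of other cell types were at 0. In the dividing cells, Flt3, Cd3e, Cd8a, Elane, Csf1r, Ebf1, Pax5, Ms4a2 and Mcpt8 had no UMI among 1674094, and a floor of 3 counts in that total equals 1.79 CPM. They were picked from marker lists in which other genes were detected. Flt3, against which the cells were sorted, was under that floor in cells with a rule sum of 0 too (0.668 CPM, from 13 UMIs). Its 0 is therefore no difference between the groups. The remaining genes named are not set against the other cells here, so their 0 describes the dividing cells only. Without Dntt and Ly6d, which the rule limits in both groups, the 13 remaining early lymphoid and B lineage genes summed to 28.7 CPM against 44.6 CPM in the other cells, with 7 of them at 0. The myeloid list stood at 475 against 1256 CPM, with 4 of 14 at 0. Most of it came from Fcer1g and Cebpb. At rule sums of 10 to 19 and 20 or more, the list held 450 and 496 CPM. Fcer1g gave 203 and 217 CPM of these, and Cebpb 234 and 259 CPM. At a sum of 0 the 2 genes gave 848 and 463 of 1324 CPM. The T lineage list stood at 118 against 115 CPM with 3 of 10 genes at 0. Lat gave 75.9 of its 109 CPM at 10 to 19 and 102 of 125 CPM at 20 or more. The plasmacytoid and dendritic list without Cd74, which the rule also limits, stood at 262 against 281 CPM with 7 of 14 at 0. Cpa3, a mast cell protease gene, was higher, at 234 against 143 CPM. It was detected after thinning in 37.1% against 15.8% of the cells, and in 50.8% of those left out for Dntt or Ly6d, while 7 of the 10 listed mast and basophil genes were at 0. The platelet gene Pf4 stood at 108 against 14.47 CPM, but 178 of its 181 UMIs came from 1 cell, and without that cell its level was 1.81 CPM. The erythroid and megakaryocyte list, which holds Pf4, summed to 157 against 101 CPM with 1 of 14 genes at 0. Without the cell that held 186 of its 263 UMIs, it summed to 46.3 CPM. Among the other cells, 1 cell held 189 of the list's 2313 UMIs, and no cell was taken out there. The values of 1.81 and 46.3 CPM therefore have no like value in the other cells. Of the 597 cells with 2 or more UMIs of Dntt and Ly6d, 108 (18.1%) reached the rule sum of 10, against 2.91% (2.51 to 3.35%) of the 6389 cells under the limits.

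The same rule found 2189 dividing cells in fetal liver, 27.0% (26.04 to 27.99%) of 8105, against the 2.91% in bone marrow. The fetal cells were deeper, with a median of 14337 UMIs per dividing cell against 8426.5 in bone marrow. With 10 rule UMIs per 10000 UMIs asked instead, the shares were 3.35% in bone marrow and 24.8% in fetal liver. Tissue, age and library cannot be told apart in what follows. Nor can the sex of the animals, since Xist, the RNA of the inactive X chromosome, had 0 UMIs in bone marrow dividing cells against 261 CPM in those of fetal liver. Of 6746 genes measured, 614 (9.1%) were higher by 2-fold or more in bone marrow dividing cells than in fetal liver dividing cells, and 373 (5.53%) were lower by 2-fold or more.

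List medians of the division machinery lay within 2-fold. The same rule on mitotic genes chose the dividing cells in both tissues, so the likeness of the mitotic lists follows partly from the choice. Medians of the log2 ratio, bone marrow over fetal liver, were 0.32 for spindle genes, 0.12 for cyclins and mitotic kinases, 0.12 for kinetochore genes, 0.02 for fork genes and -0.09 for MCM and licensing genes, with 1 of 18 of the last past 2-fold. Cdk1 stood at 201 against 254 CPM and Cenpa, the centromeric histone, at 335 against 367 CPM. Several inhibitors of the cycle lay further apart. Cdkn1a, p21, stood at 89.0 against 23.4 CPM (1.93), Cdkn2c at 40.6 against 10.4 CPM (1.97), Rb1 at 37.6 against 15.5 CPM (1.28), and Wee1, the kinase that holds CDK1 inactive, at 26.9 against 8.10 CPM (1.73). Cdkn1c, p57, lay the other way, at 5.97 CPM, from 10 UMIs, against 25.1 CPM (-2.07, -3.13 to -1.18). The ratio of Cdkn1c turned positive with the rule scaled to the UMIs of each cell, so its direction depends on the rule. Cdkn2d, p19, lay within 2-fold, at 87.2 against 78.7 CPM (0.15), while Ccnb1 was lower at 41.8 against 82.3 CPM (-0.98). Of 19 measured quiescence and antiproliferative genes, 15 were at least 2-fold higher and 1 lower. Klf2 stood at 927 against 123 CPM, and Klf4 at 127 against 20.3 CPM. Immediate early genes were at least 2-fold higher in 13 of 19 measured and lower in 0, with Fosb at 769 against 135 CPM and Nr4a1 at 372 against 65.6 CPM. Within bone marrow, dividing over other cells, the list medians were -0.35 for immediate early genes and -0.59 for quiescence and antiproliferative genes.

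Metabolic and lineage genes differed as well. Of 17 measured glycolysis genes, 9 were at least 2-fold lower in bone marrow and 0 higher, with Tpi1 at 170 against 532 CPM (-1.64) and Aldoa at 305 against 772 CPM (-1.34). Gata3 stood at 400 against 98.0 CPM (2.03), and Areg at 168 against 7.69 CPM (4.45), among genes with at least 50 CPM the second largest ratio upward after Stxbp6 (63.3 against 2.78 CPM, 4.51), which encodes a syntaxin-binding protein. Hlf, a transcription factor of stem and progenitor cells, stood at 78.3 against 4.57 CPM (4.10). Id2, Tcf7 and Runx3 had ratios of 0.09, -0.07 and 0.15. Ifng stood at 7.17 against 188 CPM (-4.71), Arg1 at 71.7 against 251 CPM (-1.81), and Cd160, a receptor of NK cells and ILCs, at 1.79 CPM, from 3 UMIs, against 121 CPM (-6.08, -8.35 to -4.53). Il22 had 0 UMIs in bone marrow against 45.8 CPM, which makes it at least 25.5-fold lower by a floor of 3 counts over the group. Mpo, of myeloid precursors, and the apolipoprotein gene Apoe stood at 2.39 and 1.79 CPM in bone marrow against 72.1 and 217 CPM in fetal liver dividing cells. Of the 2189 fetal liver dividing cells, 189 held a UMI of Mpo and 956 a UMI of Apoe, with at most 54 Apoe UMIs in 1 cell. S100a8, of neutrophils, and the haemoglobin gene Hbb-bs stood at 0.597 and 4.78 CPM against 91.9 and 83.9 CPM, but 1 fetal liver cell held 3121 of the 3179 S100a8 UMIs and 1 held 2721 of the 2901 Hbb-bs UMIs. Without those cells, S100a8 was at 1.68 CPM and Hbb-bs at 5.21 CPM in fetal liver dividing cells.

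Dividing cells were also set against the other cells of their own tissue. Of all 6361 genes measured in fetal liver, 207 (3.25%) were at least 2-fold higher in its dividing than in its other cells, and 58 (0.912%) lower. Among 5984 genes measured in both tissues, 454 were at least 2-fold higher in dividing bone marrow cells and 185 in dividing fetal liver cells. Of these, 178 were shared, 39.2% of the bone marrow genes and 96.2% of the fetal liver genes. The same 5 rule genes chose the dividing cells in both tissues, so this overlap follows partly from the choice. Of the 329 lower in bone marrow and the 28 lower in fetal liver among the 5984, 21 were shared, 6.38% and 75%. Without a fold limit, 438 of the 454 higher and 310 of the 329 lower bone marrow genes had the same sign in fetal liver. The share with the same sign over all 5984 genes was not taken, so these counts have no background beside them. Among the other cells, thinned to 2000 UMIs, 94.2% (93.5 to 94.8%) in bone marrow and 73.9% (72.8 to 75.1%) in fetal liver had no UMI of the 5 genes, so the cells set against the dividing ones differ between tissues. Ccl5 had log2 ratios of -3.53 in bone marrow and -0.85 in fetal liver, and the PLZF progenitor list had medians of -1.02 in bone marrow and -0.45 in fetal liver.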

How the data were processed

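Single-cell libraries were made with Chromium 3′ v2 chemistry and sequenced on a NovaSeq, per the labels' protocols. The authors deposited UMI counts per gene and cell barcode for 1 library per tissue, with tables of other, non-numeric entries that name genes and barcodes. The file headers name software version 3.0.1 and matrix format 2. The submitters' processing notes name mm10 and Seurat 4.0. Aligner, annotation and the use of strand were not given in the sources used here.

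Cells needed at least 500 genes and at most 10% mitochondrial UMIs. UMIs were summed over the cells of a group and scaled to 1000000 (CPM). Genes that reached 10 CPM in either group were measured, a ratio of at least 2-fold was counted, and 121 genes that share a symbol were left out. Of 27998 gene IDs, 27645 matched GENCODE M21. Exact Poisson, binomial (Clopper-Pearson) and conditional 95% intervals cover counting error only. Totals of 1674094 UMIs over the 186 dividing and 22936198 over the 6203 other bone marrow cells set that precision. Shares used cells thinned to 2000 UMIs (seed 20). Named genes were the 15 largest and 15 smallest ratios with at least 50 CPM in bone marrow, 10 each way between tissues, 4 per list, the sorting genes and the ILC transcription factors. Members and gene lists were chosen with earlier results of these data known. Other genes named were chosen after their values were seen. The interval method was tested on simulated data of 6409 genes and covered the known value for 96.0% of unchanged genes. The simulated counts were Poisson draws, the model that the interval assumes. Spread between cells was not simulated, so the coverage checks the calculation only. Scrublet, in scanpy 1.11.5, called 0 of 7258 cells doublets and so did not work, and doublets were not removed. The dividing cells had a median doublet score of 0.063, against 0.075 in the other cells. Values without the highest cell were added after the data were seen. Alternatives covered the rule, filters, scaling, thinning and references. Tools were Python 3.11.15, numpy 2.4.6, scipy 1.17.1, pandas 2.3.3, R 4.3.3 and edgeR 4.0.16 (TMM factors only). Promoters came from RefSeq on GRCm38.p6.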

Additional observations from a re-analysis of the deposited data

Results flagged for a closer look

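Car1, which encodes a carbonic anhydrase of red cell precursors, lay on opposite sides in the tissues. Its log2 ratio of dividing over other cells was -2.68 (-4.56 to -1.31) in bone marrow, from 4 UMIs in the dividing cells and 350 in the others, and 1.44 (1.29 to 1.60) in fetal liver, from 970 and 530 UMIs. Hspa1b, an inducible heat shock gene with the near-identical copy Hspa1a, had a ratio of -1.77 (-2.84 to -0.87) in bone marrow, from 10 and 466 UMIs, and 0.74 (0.51 to 0.96) in fetal liver, from 357 and 319 UMIs. With 1 library per tissue, neither difference was tested.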

How the results depend on the processing

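No paired analysis was possible because each tissue has 1 library, and leaving out a replicate was not possible either. The rule gave 97 cells at a minimum of 20 UMIs and 297 without the limits on Dntt, Ly6d and Cd74. Genes at least 2-fold higher in dividing than other bone marrow cells numbered 538, and 241 with at least 50 CPM and 814 after thinning to 2000 UMIs. Those lower numbered 511, and 104 with at least 50 CPM, 1189 with no minimum and a pseudocount of 1 CPM, and 923 after thinning. Between bone marrow and fetal liver dividing cells the counts were 614 higher, with 174, 1081 and 968 under the same 3 settings, and 373 lower, with 96, 934 and 684. TMM scaling moved the median of all genes by 0.13 between tissues. Among cells with at least 5000 UMIs, an alternative chosen after seeing the data, the ratio turned to 0.70 for Csf2, 0.31 for Il1rl1, 0.37 for Il4 and 0.63 for Ly6a. Pf4 turned to -2.45 among cells with ILC2 markers and -1.88 among cells with PLZF progenitor markers. Between tissues, the ILC3 and LTi median was 0.13, the mast and basophil median 0.38 and the sex-linked median -7.19 with at least 50 CPM, and Cdkn1c was 0.22 with the rule set per 10000 UMIs. The cause was not tested. Depth limits low genes most: 3 counts equal 1.79 CPM in the dividing cells.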
